A study of Mus musculus with 6 samples.

Results

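The probes of mouse chromosome 4 that lie beyond a short run of very low epithelial log2 ratios, towards the chromosome end, were described array by array to see how far a lower epithelial level reaches. The starting point was chosen by measured values. It is the end, at 88864773 of the genome build mm8, of the longest run of chromosome 4 probes with a log2 ratio below -2 on all 3 epithelial arrays, so the epithelial ratios selected the members and are given as a description. The run held 4 probes, and 1553 probes began beyond it, of 42404 different probes on the array (3.66%) and of 2507 on chromosome 4 (61.9%). They ran from 89184415 to 155029031, over 65.8 Mb.

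Array-CGH compares the DNA of a sample with that of a reference, since each takes its own dye and both bind to a common set of probes. The sample DNA was taken by laser capture, separately from the epithelia and the stroma of the forestomach, in 3 Tgfbr2 fspKO mice with squamous cell carcinoma, on the C57Bl/6 background and 5 weeks old, and epithelia and stroma of a mouse with the same number came from the same animal. In Tgfbr2 fspKO mice a Cre under the FSP1 promoter deletes the floxed *Tgfbr2*, the gene of the type II TGF-β receptor, in FSP1+ fibroblasts, so that the deletion is meant for part of the stroma and not for the epithelia. The reference DNA on every array came from epithelia of normal forestomach of Tgfbr2 flox/flox mice, which carry the floxed alleles without the deletion. Whether DNA of several reference mice was pooled is not given in the sources used here. The tissues were told apart by morphology, and the tissue of each array was not checked here by another marker. On all 6 arrays the sample had Cy3 and the reference had Cy5, and without a dye swap an effect of the dye cannot be told apart from 1 of the sample. No Tgfbr2 flox/flox mouse was a test sample, and a ratio against 0 leaves out the spread between control mice. One slide carried both tissues of mice 1 and 2, and a further slide carried both tissues of mouse 3.

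A log2 ratio of -1 is the ratio of 1 copy to 2 copies when every cell of the sample is alike, and cells with the full number of copies move it towards 0. The ratios here are test over reference after subtraction of the array median, and 0 is therefore the middle of all probes and not a counted copy number. The distal part of mouse chromosome 4 shares much of its gene content with the short arm of human chromosome 1, and loss of alleles there is a known event in mouse tumors. The *Cdkn2a* and *Cdkn2b* genes, which encode inhibitors of the kinases that drive cells out of the G1 phase, also lie on this chromosome.

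No gene names come with the probe positions. A gene table in another assembly (GRCm38.p6) served for names and order only. It lists 1328 protein-coding genes on chromosome 4, of which 831 (62.6%) follow *Cdkn2b*. All 13 genes looked up were found. After *Cdkn2b* the order is *Jun*, a subunit of the transcription factor AP-1, then *Jak1*, a kinase of cytokine receptors, then *Cdkn2c*, another inhibitor of the G1 kinases, and then *Mycl*, a transcription factor of the Myc family. Further towards the end follow *Runx3*, a transcription factor that works with Smad proteins in TGF-β signaling, then *E2f2*, which drives genes of DNA replication, and *Cdc42*, a small GTPase of the cytoskeleton. The last of them are *Casp9*, an initiator caspase, *Mtor*, the kinase of nutrient signaling, *Pik3cd*, a catalytic subunit of PI3 kinase, and *Trp73*, a relative of p53. No ratio is given for any of these genes, since no probe was assigned to one.

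The arrays differed in how well they read these probes. A test signal well above background was found for 86.9%, 85.2% and 96.0% of the 1553 probes on epithelial arrays 1, 2 and 3, against 92.9%, 87.9% and 98.3% of all probes. The stromal shares were 95.2%, 84.1% and 91.8% of the distal probes, against 97.2%, 89.7% and 94.6% of all probes. For the reference signal the shares of the distal probes were 75.3%, 71.5% and 95.4% on the epithelial arrays and 70.1%, 75.3% and 92.1% on the stromal arrays. Of all probes, they were 82.0%, 78.8% and 97.5% on the epithelial arrays and 77.9%, 82.2% and 95.3% on the stromal ones. The distal probes were thus dimmer than the rest of the array in both channels, and 973 of them passed this limit for both dyes on every array, as did 30176 of all 42404. Outlier spots removed at most 3 of the probes from an array, and 1548 had a value on all 6. The log2 ratio had a standard deviation over the distal probes of 0.53, 0.94 and 0.43 on epithelial arrays 1, 2 and 3, and of 0.53, 0.49 and 0.48 on the stromal ones. The epithelial array of mouse 2 was the noisiest of the 6. The array software's own measure of spread between neighboring probes was 0.47, 0.84 and 0.40 on epithelial arrays 1, 2 and 3. On the stromal arrays it was 0.49, 0.40 and 0.42. The software did not mark this measure as within its range on any of the 6 arrays.

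In the epithelia, the lower level reached the chromosome end in mice 1 and 3 and stopped before it in mouse 2. The mean log2 ratio of the distal probes was -0.22 in mouse 1, 0.094 in mouse 2 and -0.22 in mouse 3. Over the 3 mice it was -0.11 ± 0.18 (SD, n = 3), a mean smaller than its SD. Mice 1 and 3, which were on different slides, lay close together, and mouse 2 lay on the other side of 0. Without mouse 2 the mean was -0.22. With normexp background correction the means were nearer to 0, with -0.13, 0.041 and -0.14, and among the 973 probes they were -0.25, 0.048 and -0.23. The sign in each mouse was the same under both. The median over the probes gave the same order, with -0.23, 0.066 and -0.22. Of the distal probes, 67.4%, 47.1% and 70.3% were below 0 in mice 1, 2 and 3, where centering puts 50% of all probes. The quartiles of the distal probes were -0.57 and 0.12 in mouse 1, -0.49 and 0.68 in mouse 2, and -0.50 and 0.059 in mouse 3. The lower level in mice 1 and 3 was thus a shift of the whole distribution by less than the scatter of single probes.

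To place the end of the lower level, the distal probes of each array were divided into pieces of equal level by penalized least squares, with at least 10 probes per piece. The extent was taken as the end of the unbroken series of pieces with a mean below 0 that starts at the first distal probe. In the epithelia of mouse 1 the method found a single piece of 1553 probes with a mean of -0.22, which ended with the last probe at 155029031. Mouse 3 likewise gave a single piece with a mean of -0.22. No step within the 65.8 Mb was large enough to divide either array. In the epithelia of mouse 2 there were 2 pieces, and the level turned between 115126817 and 115144204. The first piece held 390 probes over 25.9 Mb with a mean of -0.24, and the second held 1163 probes over 39.9 Mb with a mean of 0.20. The lower level of mouse 2 therefore covered 39.4% of the length and stopped 39.9 Mb before the last probe. This end depended on the penalty, since with 1.5 in place of 3 times the logarithm of the number of probes it was at 105875562, or 25.4% of the length. In mice 1 and 3 the end stayed at the last probe with either penalty.

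Averaged up to the turning point of mouse 2, the 3 epithelia had similar means, and beyond it mouse 2 differed in sign. Over the 390 probes up to 115126817, the mean was -0.19 in mouse 1, -0.24 in mouse 2 and -0.20 in mouse 3. Over the 1163 probes beyond, it was -0.23 in mouse 1, 0.20 in mouse 2 and -0.22 in mouse 3. The far part minus the near part was -0.040 and -0.020 in mice 1 and 3, and 0.44 in mouse 2. The stroma of the same mice had 0.093, 0.0010 and -0.045 over the near probes and -0.076, -0.12 and 0.064 over the far ones. Every epithelial value of the near part was lower than every stromal one, whereas in the far part mouse 2 was above its own stroma. This boundary was taken from the epithelia of mouse 2 after the values were seen. In mouse 2, a near part below 0, a far part not below 0 and the step between them therefore follow from the choice. Within the near part the arrays differed by window.

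In steps of 10 Mb from the first distal probe, the last step being shorter, the epithelia of mouse 1 had means of -0.17, -0.25, -0.13, -0.20, -0.21, -0.22 and -0.37. Mouse 3 had -0.16, -0.21, -0.20, -0.17, -0.21, -0.24 and -0.34 over the same steps. In both, the level was lowest in the last step, from 149473082 to 155029031 with 159 probes, so their step means did not return towards 0. This step was also the lowest in the stroma of mice 1 and 2, with -0.16 and -0.18, and the stroma of mouse 3 had 0.071. In mouse 2 the values were -0.35, -0.16, -0.023, 0.23, 0.23, 0.16 and 0.28. Its step mean was lowest next to the run of low probes and highest in the last step, where those of mice 1 and 3 were lowest.

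Finer detail came from 31 windows of 50 consecutive probes, the last with 53. In the epithelia of mouse 1, 30 of the 31 window means were below 0, from -0.44 to 0.021, with a median of -0.22. The exception lay from 111788234 to 115413118, where the mean was 0.021 in mouse 1 and -0.27 in mouse 3. In mouse 3 all 31 were below 0, from -0.38 to -0.057, with a median of -0.21. Mice 1 and 3 had their lowest mean in the same window, from 149740950 to 152801970, with -0.44 and -0.38, where mouse 2 had 0.40. The stroma had -0.21, -0.15 and 0.056 there, and this window was also the lowest in the stroma of mouse 1. In mouse 2, 9 of the 31 were below 0, and they ranged from -0.43 to 0.49, with a median of 0.13. The first 4 windows of mouse 2, up to 105823156, had means of -0.36, -0.33, -0.43 and -0.35. The fifth, up to 106891107, had 0.13, and the next 3 had -0.075, -0.095 and -0.19. Beyond 115419409, 2 windows of mouse 2 were below 0, with -0.13 from 117928779 to 118912740 and -0.42 from 141467138 to 146454345. The latter was surrounded by means of 0.40 and 0.23, and the division into pieces made no break there. Over this window mice 1 and 3 had -0.25 and -0.24, and the stroma had 0.064, 0.020 and -0.033.

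Of the 31 windows, 8 had a mean below 0 on all 3 epithelial arrays, beside 15.6% of 844 windows over all chromosomes. This count was set by mouse 2, and without it 30 windows were below 0 on both remaining arrays. The 15.6% is for 3 arrays, and no share over all chromosomes is given for the remaining arrays alone. The lowest window by the mean of 3 mice lay from 99214564 to 102303911, with -0.29, -0.43 and -0.21 in mice 1, 2 and 3, or -0.31 ± 0.11 (SD, n = 3). The stroma had 0.20, -0.017 and -0.085 there. The highest lay from 138921586 to 140484515, with -0.10, 0.47 and -0.17, or 0.065 ± 0.35, so that even here mice 1 and 3 were below 0. The last window, from 154393249 to 155029031, had -0.29, 0.096 and -0.37 in the epithelia. In mouse 1 this was nearer to 0 than the 2 windows before it, with -0.44 and -0.43. In mouse 3 those windows had -0.38 and -0.27.

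Over the distal probes, the stroma of mice 1 and 3 lay nearer to 0 than their epithelia. In mouse 2 the distances from 0 were similar. Among the 973 probes the stroma of mouse 2 was farther from 0, with -0.089 against 0.048 in the epithelia. The stroma differed in sign between the mice. The mean log2 ratio was -0.033 in mouse 1, -0.091 in mouse 2 and 0.037 in mouse 3, or -0.029 ± 0.064 (SD, n = 3). It was below 0 in 2 of 3 mice, with an adjusted p of 0.958 in limma over 21 regions (each chromosome, with chromosome 4 as 2 parts). An exact sign-flip permutation test over the 3 mice gave a two-sided p of 0.75, and 0.25 is the smallest that 3 mice allow. Without mouse 2 the mean was 0.0020. Among the 973 probes well above background, all 3 stromata were below 0, with -0.059, -0.089 and -0.0084, or -0.052 ± 0.041 (SD, n = 3, adjusted p = 0.903 in limma). The sign in mouse 3 thus depended on which probes were kept. Of the distal probes, 56.4%, 58.5% and 49.2% were below 0 in mice 1, 2 and 3.

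Each stromal array was divided into 2 pieces, and none of them repeated the course of the epithelia of mice 1 and 3. In mouse 1 the first piece, 363 probes up to 113700993, had a mean of 0.11, and the second had -0.076. In mouse 2 the first piece, 445 probes up to 116309500, had 0.00083, and the second had -0.13. In mouse 3 the order was the reverse, with -0.034 over 741 probes up to 126678815 and 0.10 beyond. The level next to the run was thus at or above 0 in mice 1 and 2, and an extent from the first probe existed in mouse 3 alone. In mouse 2 this rested on a first piece barely above 0, and in 6 of 8 other analyses a weak level below 0 reached the last probe there. In mouse 1 this occurred in 1 of 8, with the penalty at 6. In the last step, from 149473082, the stroma had -0.16, -0.18 and 0.071, the lowest of the steps in mice 1 and 2. Of the 31 windows, 21, 27 and 13 were below 0 in the stroma of mice 1, 2 and 3, and 6 were below 0 on all 3 arrays, beside 19.7% of windows over all chromosomes. Without mouse 3 there were 20 such windows, and without mouse 1 there were 11. The 19.7% is for 3 arrays and does not apply to these counts, for which no such share is given. The lowest stromal window lay from 118917717 to 120710137, with -0.13, -0.13 and -0.082, or -0.11 ± 0.027 (SD, n = 3). The highest was the first window, from 89184415 to 96009503, with 0.27, 0.084 and 0.11, or 0.15 ± 0.098.

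Within each mouse, the epithelia were below the stroma over the distal probes in mice 1 and 3 and above it in mouse 2. The difference between the means was -0.18 in mouse 1, 0.19 in mouse 2 and -0.25 in mouse 3, or -0.084 ± 0.24 (SD, n = 3), smaller than its SD. Without mouse 2 it was -0.22, and without mouse 3 it was 0.00081. On the slide with mice 1 and 2 the mean was -0.062 in both tissues, because the differences of these mice had opposite signs and nearly cancelled. On the slide with mouse 3 the mean was -0.22 in the epithelia and 0.037 in the stroma. By windows, the epithelia were below the stroma in 30 of 31 in mouse 1, in 8 in mouse 2 and in 31 in mouse 3. In 7 windows this held in all 3 mice, and in the other 24 it held in 2 of them. No share over all chromosomes is given for these counts, which describe the distal windows only. All 3 epithelia were below all 3 stromata in 6 windows, beside 9.36% of the windows over all chromosomes. These were the first 4, up to 105823156, the one from 107052814 to 108347181 and the one from 141467138 to 146454345. Near the start the epithelia were thus below the stroma in every mouse, and over most of the rest they were below it in mice 1 and 3 and above it in mouse 2.

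Against the 950 probes of chromosome 4 on the other side of the run, which cancels the centering, the distal level was lower in the epithelia of mice 1 and 3. The proximal mean of epithelial arrays 1, 2 and 3 was 0.091, -0.012 and 0.052, and the distal minus the proximal mean was -0.31, 0.11 and -0.27, or -0.16 ± 0.23 (SD, n = 3). In the stroma the difference was -0.069, -0.093 and 0.085, or -0.025 ± 0.097, and the exact sign-flip permutation test gave p = 0.75 (two-sided). Without mouse 2 the stromal difference was 0.0081. In mice 1 and 2 the stroma was slightly lower on the distal side, and in mouse 3 it was higher.

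Among the 21 regions, the distal part of chromosome 4 had the lowest mean of all in the epithelia of mice 1 and 3. The next lowest regions were at -0.13 and -0.16 there. In the epithelia of mouse 2 it ranked 15 from the lowest. In the stroma it also ranked lowest in mice 1 and 2, though by less, with -0.033 against -0.025 for the next region and -0.091 against -0.064, and it ranked 18 in mouse 3. The distal part was therefore the lowest region on 4 of the 6 arrays, and the exceptions were mouse 2 among the epithelia and mouse 3 among the stromata.

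The 2 channels were also read apart, as the mean log2 signal of the distal probes relative to the median of all probes of that channel. In the reference channel it was -0.40, -0.39 and -0.44 on the epithelial arrays and -0.37, -0.40 and -0.43 on the stromal ones. In the test channel it was -0.62, -0.32 and -0.67 in the epithelia and -0.43, -0.49 and -0.37 in the stroma. The SD between mice was 0.023 in the reference channel and 0.19 in the test channel of the epithelia. The spread between the epithelial arrays thus lay mainly in the Cy3 channel, where dye and sample cannot be told apart, and the distal probes were dimmer than the array median in the reference on every array.

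The distal probes were spaced more closely than those before the run, with a median distance between neighboring starts of 17.9 kb against 29.4 kb, and their spacing changed along the chromosome. The first window spanned 6.83 Mb, and the last one 0.636 Mb. The window of mouse 2 from 141467138 to 146454345 was the longest after the first, with 4.99 Mb. Its probe spacing of 25.7 kb was wider than the median of 17.9 kb over the distal probes. The widest spacing of a window was 51.6 kb. Over the 31 windows, the correlation of the mean log2 ratio with the logarithm of the probe spacing was 0.22, -0.47 and 0.28 on epithelial arrays 1, 2 and 3, and 0.66, 0.47 and -0.26 on stromal arrays 1, 2 and 3. Over 720 windows of the other autosomes without chromosome 8 it was 0.17, -0.51 and -0.13 in the epithelia and 0.26, 0.45 and -0.38 in the stroma. Windows share the reference DNA and the array, and they are not independent. The base composition of the probes was not measured. The trend with spacing thus had 1 sign on epithelial array 2 and the other on stromal arrays 1 and 2, here and elsewhere in the genome. Single windows departed from it, and the densest, the last, had 0.096 in the epithelia of mouse 2, under the median of its windows. With the trend of the other autosomes taken off, a step added after the data were seen, the distal mean was -0.20, 0.044 and -0.22 in the epithelia and -0.017, -0.078 and 0.028 in the stroma. The lower level of mouse 2 then ended at 118715089, and that of mice 1 and 3 at the last probe as before. The part of the spacing in the remaining difference between mouse 2 and the others was not tested.

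At the start, the epithelial ratios of the run lay below those of the first distal probes on every array. The last probe of the run, at 88864714 to 88864773, had log2 ratios of -6.07, -3.28 and -4.60 on epithelial arrays 1, 2 and 3 and -0.040, 0.35 and -0.18 in the stroma. The other 3 probes of the run, at 88759685, 88763392 and 88769295, had epithelial means of -4.04, -3.23 and -3.89 and stromal means of -0.42, 0.45 and -0.56, where 0.45 came from 1.71, -0.39 and 0.017 in mice 1, 2 and 3. The epithelial test signal was well above background on 3, 0 and 1 of the 3 arrays at these probes and on 1 at the last of the run, so the sizes of these ratios are not exact. The probe before the run, at 88654555, had an epithelial mean of -0.27 ± 0.41 and a stromal mean of -0.42 ± 0.26 (SD, n = 3 each). After a gap of 320 kb without a probe, the first distal probe, at 89184415, had -0.32, -0.53 and 0.27 in the epithelia and 0.047, -0.087 and -0.11 in the stroma. The next 4, at 89276119, 89617858, 89714998 and 89717401, had epithelial means of -0.31, -0.17, -0.19 and -0.34 and stromal means of 0.46, 0.42, 0.016 and 0.063. None of the first 5 distal probes came near the values of the run on any array.

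At the chromosome end, single probes were scattered. The last 5 probes, at 154968413, 155010191, 155016226, 155023375 and 155028976, had epithelial means of -0.29, -0.0067, 0.67, 0.24 and -0.27. Their stromal means were 0.36, 0.54, -0.12, 0.070 and 0.096. At 155010191 and 155016226 mouse 3 had 1.46 and 1.43 in the stroma, far above mice 1 and 2, and the reference was well above background on 1 of 3 arrays of either tissue. The very last had -0.82, 0.67 and -0.65 on epithelial arrays 1, 2 and 3, with a reference signal well above background on 1 of the 3 arrays. Below the scale of a window, these probes do not show where the lower level of mice 1 and 3 ends, and no piece of at least 10 probes with another level was found before the last probe.

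Probe by probe, limma called 0 of the 1553 distal probes in the epithelia at an adjusted p under 0.05 over all probes, beside 0.0236% of all probes. At an unadjusted p under 0.05, 164 distal probes were lower and 42 higher, beside 4.25% and 6.42% of all probes. These counts describe values that chose the members. For epithelia minus stroma 0 were called (0.0165% of all probes), and at an unadjusted p under 0.05 there were 72 lower and 25 higher, beside 2.2% and 4.5%. A fit of the epithelia alone and a fit of the differences within mice also called 0 at the adjusted threshold.

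In the stroma, which played no part in the choice, limma called 0 distal probes as well, beside 0.00472% of all probes, and the smallest adjusted p of a distal probe was 0.208. At an unadjusted p under 0.05, 93 (5.99%) were lower and 73 (4.7%) higher, beside 6.06% and 5.45% of all probes, shares close to the background. With limma fitted to the 3 stromal arrays alone, 28 (1.8%) were lower and 12 (0.773%) higher at an adjusted p under 0.05, beside 1.96% and 1.28% of all probes, again near the background or under it. The number of calls differed between the fits, and the shares did not set the distal probes apart from the rest of the array.

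On all 3 epithelial arrays, 359 of 1553 distal probes (23.1%) were below 0, beside 12.5% of all probes, and 109 (7.02%) were above 0, beside 13.8%. In the stroma, 416 of 1548 (26.9%) were below 0 on all 3 arrays, beside 24.6%, and 277 (17.9%) were above 0, beside 23.8%. The epithelial shares again describe values that the choice used.

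Among single probes in the epithelia, 4 of the 6 with the lowest or highest means were most extreme in mouse 2 by a wide margin. The lowest with the same sign in all 3 epithelia, at 118712027, had -0.15, -4.04 and -0.74, and the next, at 102485642, had -0.39, -3.06 and -0.66, with a test signal well above background on 2 of 3 arrays for each, so their sizes are not exact. The third, at 154732632, had -1.46, -0.76 and -1.78 and was lower in mice 1 and 3 than in mouse 2, with a test signal well above background on 1 of 3 arrays. The highest, at 129142764, 138756527 and 108559614, had means of 1.32 ± 1.26, 1.26 ± 0.43 and 1.18 ± 1.33 (SD, n = 3 each), with the reference well above background on 1 or 2 arrays. At 138756527 mouse 2 was close to mouse 1, with 1.49, 1.54 and 0.77 in mice 1, 2 and 3.

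In the stroma the lowest probe, at 114559209 to 114559266, had -1.56, -1.37 and -1.25, or -1.40 ± 0.15 (SD, n = 3). Test and reference signals were well above background on each of the 6 arrays, and the epithelia had -0.98, -1.04 and -1.29 there. Its adjusted p in limma was 0.208 in the stroma, lower in 3 of 3 mice, and 0.0267 with normexp background correction, where it was the only distal probe called. The probe was low in both tissues of every mouse, with no step between them as large as that at the run. The next lowest in the stroma, at 154886155 and 109150978, had -1.29 ± 0.24 and -1.20 ± 0.16, while the epithelia had 0.21, 0.35 and -1.32 at the former and 0.10, 0.28 and -0.74 at the latter, below 0 in mouse 3 only. The highest were the probe at 138756527, with 1.32 ± 0.60 and an epithelial mean of 1.26, and those at 133252700 and 143456748, with 1.27 ± 0.28 and 1.12 ± 0.33. At 138756527 and 143456748 the reference was well above background on 1 of 3 stromal arrays, so the sizes there are not exact. At 143456748 the epithelial values were -0.18, -0.56 and 0.58.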

How the data were processed

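All 6 array-CGH arrays were used, with 1 array per tissue from each of 3 Tgfbr2 fspKO mice. The deposited intensity values are processed and median signals per channel from the authors' Feature Extraction 10.7.1.1 run, with background subtracted and dyes scaled linearly in the processed ones. The deposited log10 values are ratios of reference over test by the same software, and the series table was equal to them (largest difference 0). From 39 to 621 spots per array had a log ratio of 0, read as missing in the alternative that uses the table. Positions are those of mm8.

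Spots flagged as outliers (35 to 147 per array) were left out, log2 test over reference was averaged per probe, and the median of all non-control probes was taken off. The members and lists were chosen with earlier results of these data known. Probes were fitted with limma 3.58.1 in R 4.3.3 as 1 mean per tissue with a shared spread, and p-values were adjusted over 42404 probes by Benjamini-Hochberg. The same fit was run on 21 regional means. Pieces were found in Python 3.11.15 with numpy 2.4.6 by exact partitioning, with a penalty of 3 times ln(n) times the noise variance from neighboring probes. Both methods were also run on simulated probes with independent normal noise and no trend with probe spacing. The changes simulated for limma were larger than the distal means here. These runs therefore do not show how exact the extents are under such a trend, or how limma calls shifts this small. Named probes were the first and last 5 distal probes, the 5 before them, per tissue the 3 lowest and 3 highest with 1 sign on all arrays, any past 0.05 (0 in number), and the lowest and highest windows. The steps of 10 Mb and the split at the turning point of mouse 2 were added after the data were seen.

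The tissues were paired by animal in the labels. As a check of the pairing, each array minus the mean of its tissue was compared between the tissues of a mouse, with correlations over the probes of 0.0774, -0.0234 and 0.103. These were small, and tissues of different mice were not compared. The check therefore does not show whether paired tissues came from the same animal, and the pairing rests on the labels. Probes of an array do not count as replicates. Alternatives were normexp (offset 50), the series table, loess, bright probes only, another centering, medians, windows of 25 and 100 probes, penalties of 1.5 and 6, blocks for mouse and slide, fits of 1 tissue, each mouse left out, and a correction for probe spacing added after the data were seen (a cubic over 10 probes on each side).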

Additional observations from a re-analysis of the deposited data

Results flagged for a closer look

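In the first window, from 89184415 to 96009503, the tissues lay on opposite sides of 0 in every mouse, with -0.11, -0.36 and -0.057 in the epithelia and 0.27, 0.084 and 0.11 in the stroma. The epithelia minus the stroma was -0.33. The first 10 Mb, from 89184415 to 99166369, which contain this window, were apart in the same way, with -0.17, -0.35 and -0.16 in the epithelia, 0.16, 0.050 and 0.011 in the stroma and a difference of -0.30. The difference was not tested in either case, since the epithelial ratios chose where the probes begin. The first window was also the highest of all 31 in the stroma of mice 1 and 2 and in the epithelia of mouse 3. In the epithelia of mouse 1 its -0.11 lay above the median window of -0.22. In those of mouse 2 its -0.36 lay below the median window of 0.13.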

How the results depend on the processing

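The extent in the epithelia of mice 1 and 3 reached the last probe kept, 155029031 or 155023419, under all 8 alternatives, among them the one with probes well above background only. That of mouse 2 lay between 105875562 and 118715089. The epithelial distal mean lay between -0.15 and -0.079 under the other alternatives and between -0.22 and -0.061 when a mouse was left out, always below its SD in size except without mouse 2. Epithelia minus stroma lay between -0.22 and 0.00081, and distal minus proximal in the epithelia between -0.29 and -0.081, when a mouse was left out, and the former changed sign without mouse 3. In the stroma the distal mean went from -0.062 to 0.0020 and distal minus proximal from -0.081 to 0.0081 when a mouse was left out, and the sign turned without mouse 2. Under the other alternatives the stromal mean lay between -0.052 (bright probes, SD 0.041) and -0.015 (normexp), and distal minus proximal between -0.058 (bright probes) and -0.0013 (normexp). The adjusted p of the stromal mean in limma was 0.903 to 0.996, and the exact sign-flip test of distal minus proximal cannot fall below 0.25 with 3 mice, so it shows nothing about stability. Windows below 0 on all arrays numbered from 8 to 30 in the epithelia and from 6 to 20 in the stroma when a mouse was left out. These counts come without a share over all chromosomes. Among bright probes 6 of 19 stromal windows were below 0, and with 100 probes per window 2 of 16 were. Stromal calls were 1 with normexp and 40 with the stromal arrays alone, and the cause was not tested. With the mouse as a block the stromal mean was -0.029 (adjusted p = 0.957 in limma), and the calls among distal probes were 0 in each comparison. Over all probes, the calls for epithelia minus stroma were then 8 in place of 7. With the slide as a block the stromal mean was -0.034 and the calls among distal probes were 0. The extent in the stroma of mouse 3 moved to 155023419 among bright probes, and did not exist with a penalty of 6. In the stroma of mice 1 and 2 there was no extent to compare. In mouse 2 a level below 0 reached 155029031 with normexp, the series table, loess, either other penalty or the spacing correction, which was chosen after the data were seen, and in mouse 1 with a penalty of 6. Dim reference signals limit the distal probes, of which 973 of 1553 were bright in both channels on all arrays.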
